A study of Mus musculus with 9 samples.

Results

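RNA sequencing of bone marrow-derived dendritic cells (BMDCs) was examined for 10 genes of the hypoxia-inducible factor (HIF) pathway, chosen by name: the HIF alpha subunits, prolyl hydroxylases, and HIF targets outside glycolysis. All 10 were found among the 57238 entries of the deposited table, with 1 entry each, and all 10 passed the filter on low counts that left 15028 genes for testing. The BMDCs came from wild-type C57BL/6 mice, whose bone marrow cells were grown for 6 days with 20 ng/ml GM-CSF per the labels, while the methods give a longer culture. The methods describe the BMDCs as purified, and markers of other myeloid cells are given with the results. The control group (CTR) was left without exosomes. For 24 h, the NE-treated group was given exosomes from NIH-3T3, an untransformed line of mouse fibroblasts, and the TDE-treated group was given exosomes from tumor cells. The tumor line of these libraries is not given in the labels. Each group had 3 libraries, and whether they came from separate mice or cultures is not given either, so that the errors measure the spread between libraries, which may be technical.

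HIF is a pair of an alpha and a beta subunit that switches on genes in low oxygen. When oxygen is plentiful, prolyl hydroxylases of the EGLN family mark the alpha subunit for binding by the VHL protein and for degradation, so that HIF activity is set largely at the protein level. In myeloid cells, inflammatory signals also raise the transcript of HIF-1 alpha. Classical HIF targets include EGLN genes themselves, which makes a feedback loop, collagen prolyl hydroxylases, the angiogenic growth factor VEGF-A and factors that remove mitochondria. HIF binds DNA at the core ACGTG or GCGTG. Only transcripts were measured here, not HIF protein or its binding.

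The promoters of the members are shown because these cores are what HIF reads. Promoter sequences from 250 bases before to 50 bases after the start, on build GRCm38.p6 from RefSeq, were at hand for 8 of the 10 genes, all but Epas1 and Ndrg1. Each of the 8 held ACGTG or GCGTG on either strand in at least 1 promoter, beside 46.7% of 27025 genes. Of their 9 promoters 8 held a core, the exception being 1 of 2 for Vegfa. Of all 32851 promoters of this length in the same table, 43.8% held one of the cores, ACGTG being present in 19.6% and GCGTG in 32.4%. A match is only a run of letters, and such short cores are common. The collagen hydroxylase genes P4ha1 and P4ha2, the mitophagy gene Bnip3, and Egln3 and Mgarp, which had the largest fold differences between TDE-treated and NE-treated BMDCs, read as follows, 5′ to 3′ on the strand of the gene, with every core in capitals (CACGT and CACGC are the same cores on the other strand, and CACGTG holds ACGTG on both):
P4ha1, chr10:59323046-59323345, plus strand: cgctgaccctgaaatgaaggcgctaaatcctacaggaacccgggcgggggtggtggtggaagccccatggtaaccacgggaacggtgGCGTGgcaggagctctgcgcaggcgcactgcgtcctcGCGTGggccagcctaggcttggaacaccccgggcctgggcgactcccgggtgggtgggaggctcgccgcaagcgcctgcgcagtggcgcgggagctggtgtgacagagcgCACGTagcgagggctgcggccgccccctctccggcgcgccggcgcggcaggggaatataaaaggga
P4ha2, chr11:54100674-54100973, plus strand: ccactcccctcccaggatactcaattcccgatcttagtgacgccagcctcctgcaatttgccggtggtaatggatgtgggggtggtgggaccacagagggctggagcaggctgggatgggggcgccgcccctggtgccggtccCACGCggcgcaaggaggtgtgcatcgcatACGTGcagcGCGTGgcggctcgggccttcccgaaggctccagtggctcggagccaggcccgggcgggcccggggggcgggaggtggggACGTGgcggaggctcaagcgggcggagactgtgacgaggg
Bnip3, chr7:138909457-138909756, minus strand: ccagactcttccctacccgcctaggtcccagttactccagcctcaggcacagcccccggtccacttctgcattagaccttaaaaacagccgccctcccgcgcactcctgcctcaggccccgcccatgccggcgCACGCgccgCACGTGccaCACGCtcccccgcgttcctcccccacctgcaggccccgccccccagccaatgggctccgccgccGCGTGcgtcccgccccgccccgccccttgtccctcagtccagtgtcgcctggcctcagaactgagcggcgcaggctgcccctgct
Egln3, chr12:54203825-54204124, minus strand: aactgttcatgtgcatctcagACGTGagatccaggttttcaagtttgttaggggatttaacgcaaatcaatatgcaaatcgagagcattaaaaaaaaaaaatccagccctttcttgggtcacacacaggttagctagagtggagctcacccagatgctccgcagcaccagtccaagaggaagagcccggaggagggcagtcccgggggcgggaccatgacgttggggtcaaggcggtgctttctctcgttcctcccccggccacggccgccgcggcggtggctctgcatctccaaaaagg
Mgarp, chr3:51396498-51396797, minus strand: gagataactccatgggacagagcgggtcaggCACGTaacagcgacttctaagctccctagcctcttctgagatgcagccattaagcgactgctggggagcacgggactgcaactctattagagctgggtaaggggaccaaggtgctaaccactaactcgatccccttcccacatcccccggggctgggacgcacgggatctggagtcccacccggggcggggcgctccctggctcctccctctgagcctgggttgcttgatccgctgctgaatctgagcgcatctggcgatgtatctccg
Bnip3 and P4ha2 each held 4 separate stretches of cores and P4ha1 3, whereas Egln3 and Mgarp each held 1.

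Libraries held between 17469782 and 21092943 estimated reads on genes, and levels are given as CPM, a gene's reads relative to the size of its library as scaled by TMM. The floor of 3 reads lay between 0.142 and 0.172 CPM on the library totals and covers counting error only. Control replicate 1 stood apart: its mean correlation with the other controls across genes was 0.862, and the lowest among the other 8 libraries was 0.936. Relative to the other controls, its log2 level had a median of 1.23 in the fifth of genes with the shortest length in the table and of -0.85 in the fifth with the longest. It also had the highest summed neutrophil markers, 28990 CPM against 7250 to 10900 CPM in the other CTR and NE-treated libraries. Values against CTR without it are given beside those with it. All 9 libraries share 1 estimate of a gene's spread. Control replicate 1 therefore also enters the errors of TDE-treated against NE-treated BMDCs. The members were proposed with results of these data in view, so their differences between groups are described with errors. How many of them were called in the fit over all genes is given beside the share of all genes called, also as a description, and is not evidence for the members.

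In TDE-treated BMDCs, 9 of the 10 genes were higher than in CTR and in NE-treated BMDCs, and Epas1 was lower. No library of TDE-treated BMDCs overlapped a CTR or an NE-treated library in any of the 10 genes. The largest differences were those of Egln3, about 11.2-fold against CTR and 20.9-fold against NE-treated BMDCs. In the test over all genes (edgeR's quasi-likelihood test, adjusted p under 0.05), 8 of the 10 were called higher and 1 lower in TDE-treated against CTR BMDCs, where 16.9% of all genes were called, 7.57% higher and 9.34% lower. The same numbers, 8 and 1, were called against NE-treated BMDCs, where 13.9% of all genes were called, 6.73% higher and 7.21% lower. Hif1a was the gene not called in either comparison. Libraries that did not overlap were common among all genes, with TDE-treated BMDCs higher in 22.2% and lower in 21.8% against CTR, and higher in 26.8% and lower in 27.7% against NE-treated BMDCs. Without control replicate 1 all 10 genes were called in both comparisons, with 34.4% and 40.7% of all genes.

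**Figure D1:**
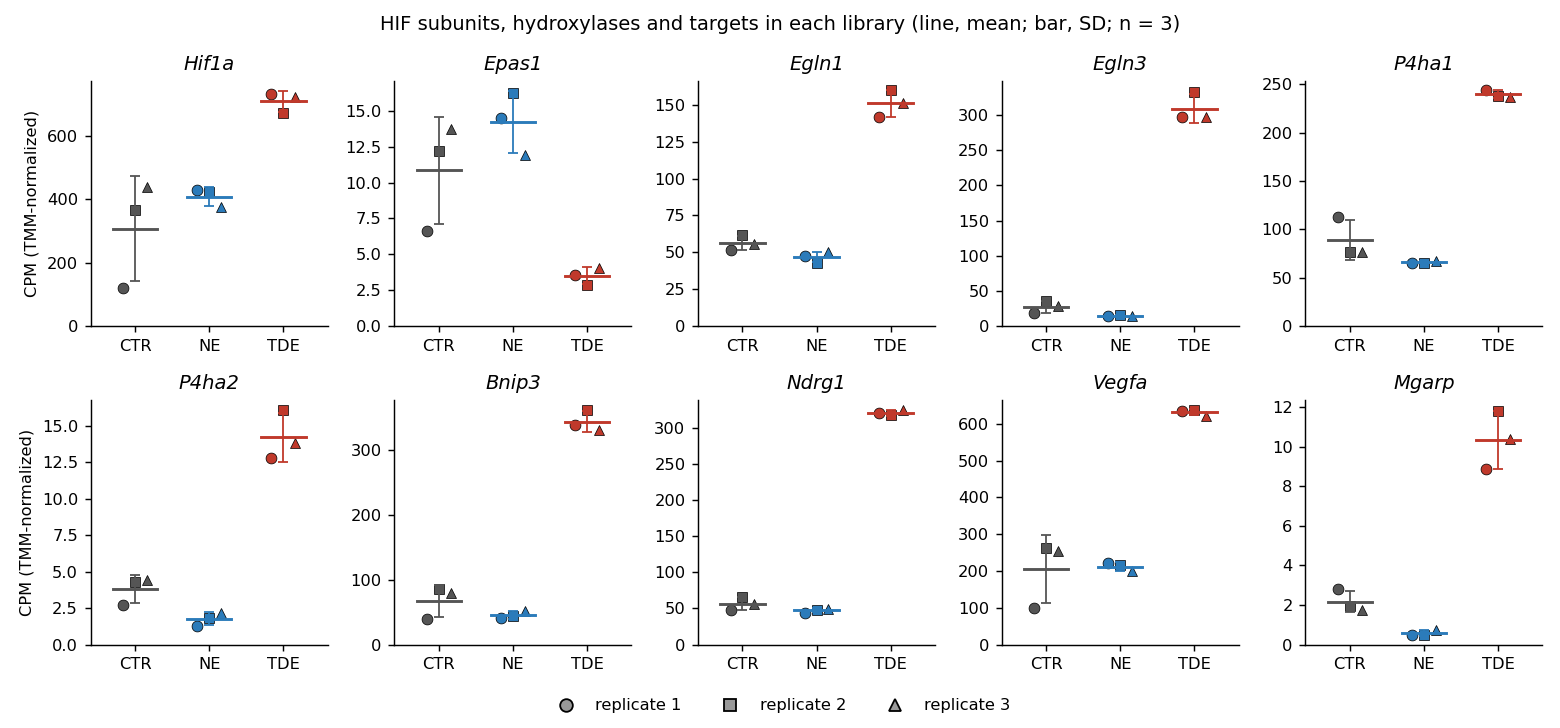
Level of each of the 10 genes in each library, in TMM-normalized CPM on linear axes starting at 0, for control (CTR), fibroblast exosome (NE) and tumor exosome (TDE) treated BMDCs; symbols are replicates 1 to 3, horizontal lines group means and bars SD (n = 3). The TDE libraries lie above all others in 9 panels and below all others for Epas1, and control replicate 1 (grey circle) lies far below the other controls for Hif1a, Bnip3 and Vegfa.

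The HIF alpha subunits moved apart. Hif1a (ENSMUSG00000021109, chromosome 12, 73901375 to 73947530 on GRCm38) encodes HIF-1 alpha, the subunit found in most cells. Its CPM was 119.7, 364.1 and 436.9 in CTR, 427.4, 422.7 and 374.4 in NE-treated and 732.6, 669.8 and 720.7 in TDE-treated BMDCs. The TDE-treated libraries were the highest, and control replicate 1 was the lowest of all libraries. The mean was 306.9 ± 166 CPM (SD, n = 3) in CTR and 707.7 ± 33.4 CPM (SD, n = 3) in TDE-treated BMDCs. This corresponds to a log2 fold change of 1.20 (standard error 0.397) against CTR, 0.81 (standard error 0.102) without control replicate 1, and 0.79 (standard error 0.394) against NE-treated BMDCs. With control replicate 1 left out of the fit, the difference against NE-treated BMDCs was 0.79 (standard error 0.0898). Exons of Hif1a overlap those of Gm15283 on the opposite strand and of Gm49321 on the same strand, so that some reads could belong to either gene.

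Epas1 (ENSMUSG00000024140, chromosome 17, 86753700 to 86833410) encodes HIF-2 alpha, the other oxygen-regulated subunit, which is best known from endothelial cells and some macrophages. Its CPM was 6.66, 12.2 and 13.7 in CTR, 14.5, 16.3 and 11.9 in NE-treated and 3.55, 2.89 and 4.08 in TDE-treated BMDCs. It was the only member whose TDE-treated libraries lay below all others. Expressed as log2, the fold change came to -1.63 (standard error 0.288) against CTR, which is 3.10-fold lower, and -2.02 (standard error 0.291) against NE-treated BMDCs, which is 4.05-fold lower. With control replicate 1 left out the value against CTR was -1.89 (standard error 0.175).

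Per length of the gene as listed in the table, Hif1a was the more abundant alpha subunit in every library. The ratio of Hif1a to Epas1 within a library was 21, 34.7 and 37.2 in CTR, 34.4, 30.3 and 36.6 in NE-treated and 241, 270 and 207 in TDE-treated BMDCs. Its mean was 31.0 ± 8.72 (SD, n = 3) in CTR, 33.8 ± 3.20 (SD, n = 3) in NE-treated and 239 ± 32.0 (SD, n = 3) in TDE-treated BMDCs, while CTR and NE-treated BMDCs overlapped. Epas1 was thus a minor transcript beside Hif1a in all groups, and more so after TDE treatment.

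Both HIF prolyl hydroxylases among the members were higher in TDE-treated BMDCs. Egln1 (ENSMUSG00000031987, chromosome 8, 124908587 to 124949324) encodes PHD2, the main oxygen sensor that limits HIF-1 alpha. Its CPM was 51.8, 61.6 and 55.5 in CTR, 47.6, 42.9 and 49.9 in NE-treated and 141.8, 160.1 and 151.5 in TDE-treated BMDCs. The groups were compact, and the log2 fold change was 1.43 (standard error 0.128) against CTR, 2.69-fold, 1.36 (standard error 0.0986) without control replicate 1, and 1.69 (standard error 0.129) against NE-treated BMDCs, 3.23-fold.

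Egln3 (ENSMUSG00000035105, chromosome 12, 54178981 to 54203860) encodes PHD3, the hydroxylase known for its strong induction by HIF. Its CPM was 18.6, 35.7 and 28.3 in CTR, 14.1, 15.3 and 14.9 in NE-treated and 297.2, 332.7 and 298.0 in TDE-treated BMDCs. All NE-treated libraries lay below all CTR libraries, and both were about an order of magnitude under TDE-treated BMDCs. In log2 units the difference amounted to 3.49 (standard error 0.238) against CTR, 3.26 (standard error 0.122) without control replicate 1, and 4.39 (standard error 0.249) against NE-treated BMDCs.

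The order of the hydroxylases changed with the group. Per length, the ratio of Egln3 to Egln1 was below 1 in every CTR and NE-treated library, at 0.484, 0.782 and 0.688 in CTR and 0.399, 0.483 and 0.404 in NE-treated BMDCs. It was 2.83, 2.81 and 2.66 in TDE-treated BMDCs, so that Egln3 was there the more abundant of the pair. In mean RPKM, which is CPM per kilobase of listed length, Egln3 stood at 116 ± 7.62 and Egln1 at 42.05 ± 2.55 (SD, n = 3) in TDE-treated BMDCs, against 10.3 ± 3.23 and 15.7 ± 1.39 (SD, n = 3) in CTR.

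**Figure D2:**
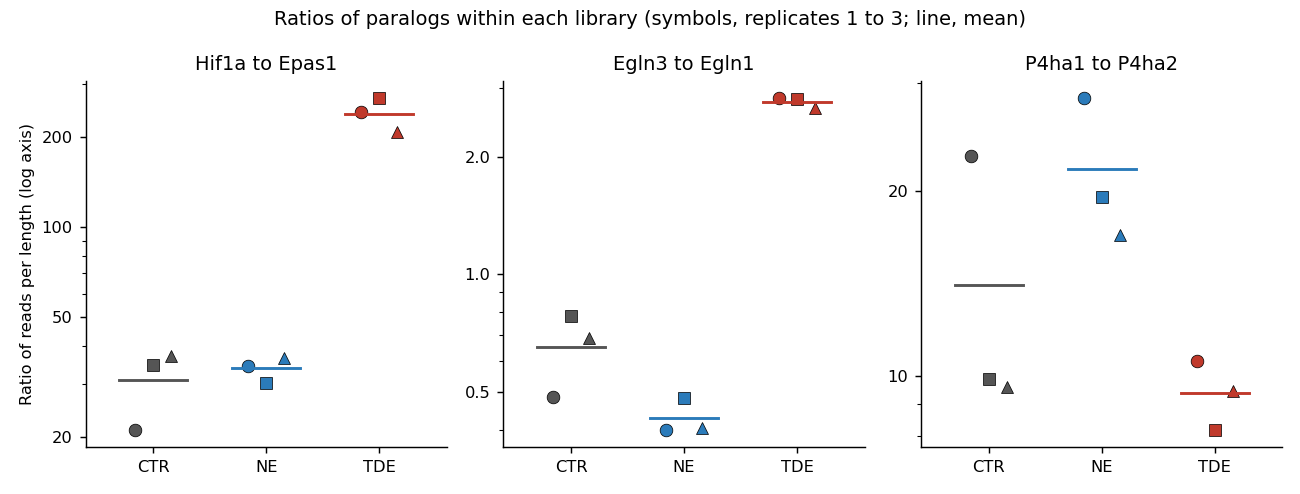
Ratio of a gene to its paralog within each library, per gene length, on log axes; symbols are replicates 1 to 3 and lines group means. Hif1a to Epas1 lies at 207 to 270 in TDE-treated BMDCs against 21 to 37.2 in the other groups, and Egln3 to Egln1 crosses 1 in TDE-treated BMDCs only, whereas P4ha1 to P4ha2 overlaps between CTR and the other groups.

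The collagen prolyl hydroxylases, whose alpha subunits hydroxylate collagen chains and are not HIF regulators, were also higher. P4ha1 (ENSMUSG00000019916, chromosome 10, 59323296 to 59373304) is the main isoform in most cells. Its CPM was 112.4, 77.0 and 76.4 in CTR, 65.6, 65.5 and 67.6 in NE-treated and 244.3, 237.6 and 236.9 in TDE-treated BMDCs. Here control replicate 1 was the highest of the controls. The log2 fold change was 1.44 (standard error 0.169) against CTR, 1.63 (standard error 0.0679) without control replicate 1, and 1.86 (standard error 0.171) against NE-treated BMDCs.

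P4ha2 (ENSMUSG00000018906, chromosome 11, 54100095 to 54131665), the second isoform, was expressed at a lower level. Its CPM was 2.73, 4.29 and 4.39 in CTR, 1.27, 1.84 and 2.19 in NE-treated and 12.8, 16.1 and 13.8 in TDE-treated BMDCs. This corresponds to a log2 fold change of 1.90 (standard error 0.259) against CTR, 1.70 (standard error 0.188) without control replicate 1, and 2.999 (standard error 0.274) against NE-treated BMDCs. Per length P4ha1 exceeded P4ha2 in every library, by a ratio of 22.8, 9.9 and 9.6 in CTR, 28.4, 19.6 and 17 in NE-treated and 10.6, 8.17 and 9.48 in TDE-treated BMDCs. The controls overlapped both other groups, so only TDE-treated and NE-treated BMDCs were apart in this ratio. The overlap with NE-treated BMDCs came from control replicate 1 alone, as the other controls lay below all NE-treated libraries.

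Among the other targets, Bnip3 and Mgarp encode proteins of mitochondria. Bnip3 (ENSMUSG00000078566, chromosome 7, 138890836 to 138909519) is a receptor that sends mitochondria to autophagy. Its CPM was 39.5, 84.9 and 78.8 in CTR, 40.3, 44.1 and 52.4 in NE-treated and 338.2, 361.2 and 329.6 in TDE-treated BMDCs. Control replicate 1 lay slightly below the NE-treated libraries, and the other controls above them. Expressed as log2, the fold change came to 2.34 (standard error 0.279) against CTR, 2.06 (standard error 0.117) without control replicate 1, and 2.91 (standard error 0.286) against NE-treated BMDCs. Its estimated reads were fractional in all libraries, and its exons overlap those of Gm45507 on the opposite strand, so that a part of its reads may be shared.

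Mgarp (ENSMUSG00000037161, chromosome 3, 51388412 to 51396738) encodes a mitochondrial membrane protein that bears on mitochondrial transport in neurons. It was the member with the fewest reads, with 44, 43 and 35 in CTR, 9, 9 and 15 in NE-treated and 160, 216 and 199 in TDE-treated BMDCs. The corresponding CPM was 2.79, 1.94 and 1.77, then 0.478, 0.488 and 0.746, then 8.87, 11.8 and 10.4. The 3 groups were fully apart, in the order NE-treated, CTR, TDE-treated. The log2 fold change was 2.26 (standard error 0.259) against CTR, 2.47 (standard error 0.208) without control replicate 1, and 4.16 (standard error 0.292) against NE-treated BMDCs, which is 17.9-fold.

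Ndrg1 (ENSMUSG00000005125, chromosome 15, 66929318 to 66969640), a cytosolic protein induced by hypoxia and by iron loss, had TDE-treated libraries far above all others. Its CPM was 47.2, 66.0 and 56.1 in CTR, 44.2, 47.8 and 49.4 in NE-treated and 320.0, 316.8 and 324.7 in TDE-treated BMDCs. CTR and NE-treated BMDCs overlapped. In log2 units the difference amounted to 2.51 (standard error 0.153) against CTR, 5.68-fold, 2.38 (standard error 0.0955) without control replicate 1, and 2.77 (standard error 0.154) against NE-treated BMDCs, 6.80-fold. Its exons overlap those of Gm17035 and Gm2895 on the opposite strand.

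Vegfa (ENSMUSG00000023951, chromosome 17, 46016993 to 46032369), which encodes the growth factor that drives blood vessel growth, was the only secreted member. Its CPM was 99.4, 261.4 and 254.3 in CTR, 220.6, 215.7 and 198.9 in NE-treated and 635.4, 636.5 and 622.2 in TDE-treated BMDCs. This corresponds to a log2 fold change of 1.62 (standard error 0.326) against CTR, 1.28 (standard error 0.0736) without control replicate 1, and 1.58 (standard error 0.325) against NE-treated BMDCs. With control replicate 1 left out of the fit, the difference against NE-treated BMDCs was 1.57 (standard error 0.0646). Per length Vegfa had the highest mean of the members in every group, with 320 ± 4.04 RPKM (SD, n = 3) in TDE-treated BMDCs, followed there by Bnip3 with 195 ± 9.30 RPKM (SD, n = 3) and Hif1a with 150 ± 7.07 RPKM (SD, n = 3). Egln3 and Ndrg1, at 116 ± 7.62 and 111 ± 1.38 RPKM (SD, n = 3), came next and did not differ beyond their spread.

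Between NE-treated and CTR BMDCs no member was called, and 0% of all genes were (edgeR's quasi-likelihood test, lowest adjusted p of the members 0.659). At an unadjusted p under 0.05, 4 of the 10 members (Egln3, P4ha1, P4ha2 and Mgarp) and 3.24% of all genes passed, and DESeq2 called Mgarp alone among the members. All members that did not overlap lay on 1 side: 5 of the 10 (Egln1, Egln3, P4ha1, P4ha2 and Mgarp) were lower in each NE-treated library than in each CTR library, and none was higher. Over all tested genes 3.67% were lower and 4.05% higher in this way. Without control replicate 1 the number was 8 of 10, with Bnip3, Ndrg1 and Vegfa added, against 7.06% of all genes.

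The sizes of these differences ran from small to marked. Relative to CTR, the log2 level in NE-treated BMDCs differed by -1.90 (standard error 0.284) for Mgarp, -1.10 (standard error 0.266) for P4ha2, -0.90 (standard error 0.22) for Egln3 and -0.57 (standard error 0.267) for Bnip3. Hif1a had 0.41 (standard error 0.392), Epas1 0.39 (standard error 0.276) and Vegfa 0.05 (standard error 0.318). The standard error was near the value for Hif1a, above it for Vegfa and below it for Epas1. With control replicate 1 left out, edgeR called 3 genes in this comparison, 0.0196% of those tested, all lower in NE-treated BMDCs: Egln3 (log2 fold change -1.12), Ak4 (log2 fold change -1.41, adjusted p = 0.00152) and Arg1 (log2 fold change -1.15, adjusted p = 0.000446). Ak4, a mitochondrial adenylate kinase, is itself a HIF target, and Arg1 encodes arginase. The controls serve in both comparisons against CTR, so the values of a member in them are not independent.

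**Figure D3:**
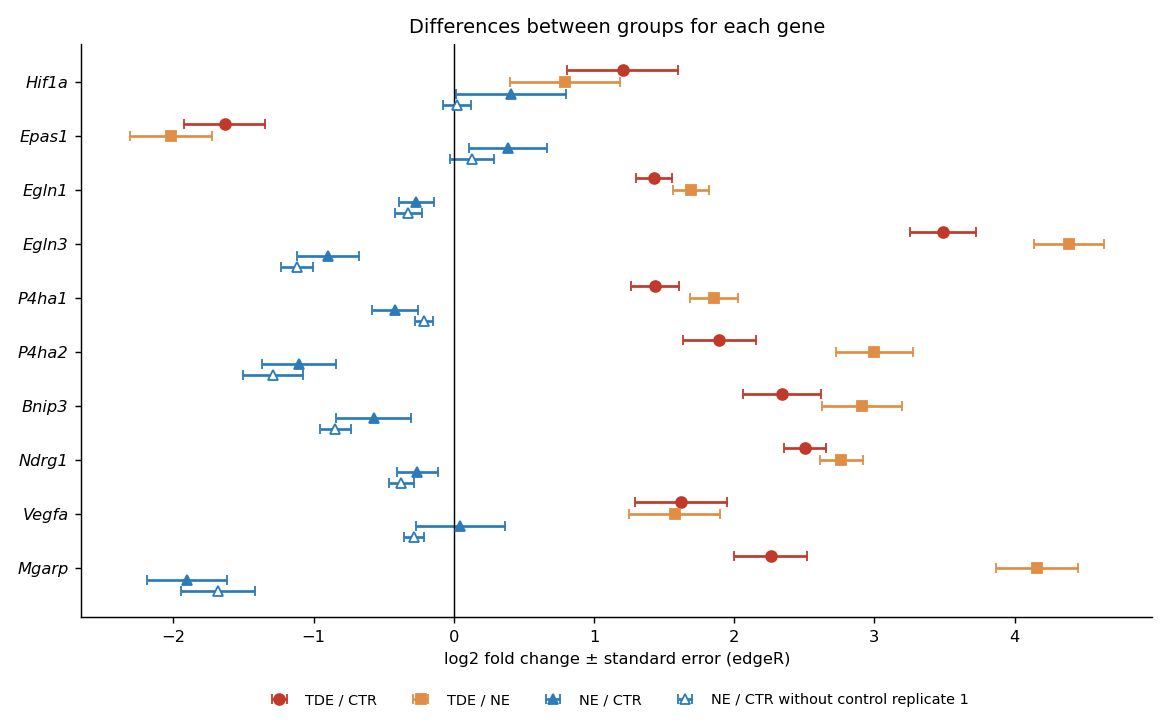
Log2 fold change of each of the 10 genes with its standard error from edgeR, for TDE against CTR (red circles), TDE against NE (orange squares) and NE against CTR (blue triangles, open without control replicate 1). Except for Hif1a, Epas1 and Vegfa the orange values lie to the right of the red ones and the blue ones left of 0; Vegfa moves from 0.05 to -0.29 without control replicate 1.

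Hif3a and Cited2 were the genes of the remaining HIF machinery that passed the test. In a list of 15 such genes, which includes the beta subunit, VHL and its partners, and coactivators, 1 rose and 1 fell in TDE-treated against CTR BMDCs, with a median log2 fold change of -0.10 against -0.06 over all genes. The gene that rose, Hif3a, encodes the third alpha subunit, with 1, 3 and 4 reads in CTR, 1, 0 and 1 in NE-treated and 11, 19 and 13 in TDE-treated BMDCs (adjusted p = 0.0205 from edgeR). It was close to the floor in the first 2 groups, so no fold is given, and the call was lost when control replicate 2 or any TDE-treated library was left out. Cited2, a competitor of HIF for its coactivators, fell by 0.67 on the log2 scale (standard error 0.121, adjusted p = 0.00831 from edgeR), from 75.5, 90.3 and 81.0 CPM to 52.6, 52.1 and 50.8 CPM. Its adjusted p reached 0.0549 without TDE replicate 3. Without control replicate 1, 4 genes of the list rose and 2 fell. Both counts stand beside 16.9% of all genes called, and 34.4% without that library.

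Named for their roles after their values were seen, Arnt, which encodes the beta subunit, had 20.3, 70.3 and 80.6 CPM in CTR and 116.5, 104.3 and 118.3 CPM in TDE-treated BMDCs (log2 fold change 0.98, standard error 0.426, adjusted p = 0.140 from edgeR, and 0.0111 without control replicate 1). Egln2, the remaining HIF prolyl hydroxylase, had 136.8, 59.7 and 57.1 CPM in CTR and 72.3, 74.3 and 78.9 CPM in TDE-treated BMDCs (log2 fold change -0.17, standard error 0.315, adjusted p = 0.714 from edgeR). Without control replicate 1, which was its highest library, the sign of Egln2 turned and it was called (0.36, standard error 0.0916, adjusted p = 0.0159 from edgeR). The log2 value for Vhl was -0.29 (standard error 0.184, adjusted p = 0.290, and -0.08 with adjusted p = 0.593 without that library) and Hif1an, the asparagine hydroxylase that limits HIF activity, 0.15 (standard error 0.201, adjusted p = 0.597, and -0.05 with adjusted p = 0.745 without it).

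Other HIF targets outside glycolysis, a list of 29 genes of which 27 were tested, moved mostly upward. In TDE-treated against CTR BMDCs 13 rose, 4 fell and 10 did not pass, with a median log2 fold change of 0.88 against -0.06 over all genes. The counts were also 13 and 4 against NE-treated BMDCs, with a median of 1.09 against -0.02 over all genes. Over all genes, 7.57% were called higher and 9.34% lower against CTR, and 6.73% and 7.21% against NE-treated BMDCs. Leaving out control replicate 1, 19 rose and 5 fell against CTR, beside 34.4% of all genes called. Lox, an enzyme that crosslinks collagen, rose most, from 2.35, 4.70 and 5.90 CPM in CTR to 366.8, 302.0 and 335.2 CPM in TDE-treated BMDCs (log2 fold change 6.27, standard error 0.359, adjusted p = 6.98e-05 from edgeR). Hilpda, a lipid droplet protein that inhibits fat breakdown, rose by 3.41 on the log2 scale (standard error 0.228, adjusted p = 0.000103). Adm, the vasodilator peptide adrenomedullin, was read 1, 4 and 4 times in CTR and 45, 26 and 29 times after TDE treatment (adjusted p = 0.00657), and no fold is given because CTR was close to the floor.

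The 4 targets that fell were Angptl4, Trf, Cxcr4 and Plaur. Angptl4, an inhibitor of lipoprotein lipase, fell by 2.70 on the log2 scale (standard error 0.311, adjusted p = 0.00115 from edgeR), from 21.4, 11.3 and 9.49 CPM to 2.11, 2.07 and 2.30 CPM. Trf, which encodes transferrin, fell by 1.22 (standard error 0.161, adjusted p = 0.00213). Cxcr4, a chemokine receptor, fell by 0.79 (standard error 0.144, adjusted p = 0.00839), a call lost at up to 0.0540 with TDE replicate 2 or 3 left out.

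Glycolytic HIF targets were called in 1 direction. Of 19 genes, 13 rose and 0 fell in TDE-treated against CTR BMDCs, and 17 rose and 0 fell against NE-treated BMDCs (edgeR's quasi-likelihood test), where 7.57% and 6.73% of all genes were called higher. Leaving out control replicate 1, 18 rose and 0 fell against CTR, beside 16.4% of all genes called higher and 18% lower. Pfkfb4, a regulator of glycolysis named after its values were seen, was not called (log2 value -0.24, adjusted p = 0.241), and its TDE-treated libraries lay below all CTR libraries. On the log2 scale Slc2a1, the glucose transporter GLUT1, differed by 2.22 (standard error 0.132, adjusted p = 7.21e-05), Hk2, a hexokinase, 2.20 (standard error 0.233, adjusted p = 0.000792) and Pdk1, a kinase that restrains pyruvate entry into mitochondria, 1.97 (standard error 0.305, adjusted p = 0.00442) against CTR. No gene of the list was called between NE-treated and CTR BMDCs, where 8 of the 19 lay lower in each NE-treated than in each CTR library and 0 higher, beside 3.67% and 4.05% of all genes.

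**Figure D4:**
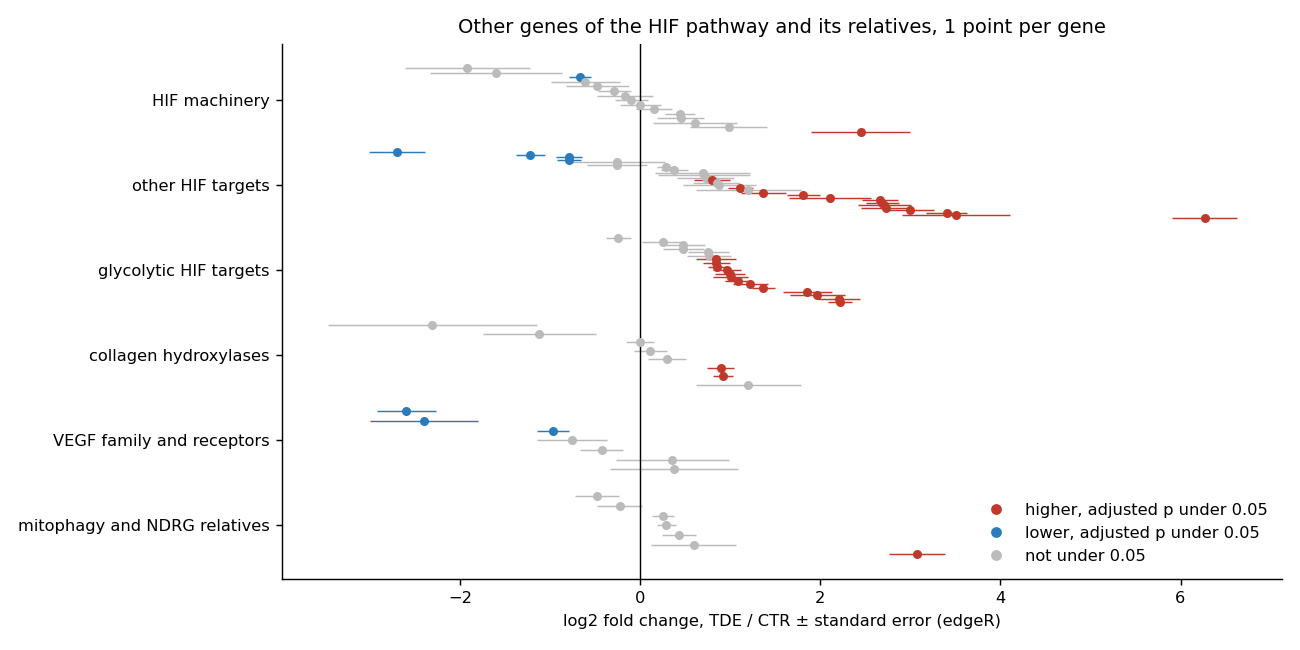
Log2 fold change with its standard error, TDE against CTR, for the tested genes of 6 lists of other HIF pathway genes and relatives of the members, 1 point per gene; red, called higher; blue, called lower; grey, not called (edgeR, adjusted p under 0.05). Other HIF targets and glycolytic HIF targets lie mostly right of 0, with Lox at 6.27, whereas the called VEGF receptors lie left of 0.

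Relatives of the members are given beside the 16.9% of all genes that were called. Among 8 tested collagen hydroxylases and partners, 2 rose: P4hb, the beta subunit that binds P4ha1 and P4ha2, at a log2 difference of 0.90 (standard error 0.152, adjusted p = 0.00640 from edgeR), and Plod1, a lysyl hydroxylase, with 0.92 (standard error 0.11, adjusted p = 0.00133). With control replicate 1 left out, 3 rose and 1 fell, beside 34.4% of all genes called. P4ha3 was listed at 0 in every library. Of the 7 tested relatives in mitophagy and the NDRG family, 1 rose: Ndrg2, from 2.22, 1.72 and 0.908 CPM to 11.9, 14.2 and 14.7 CPM (log2 fold change 3.08, standard error 0.311, adjusted p = 0.000627). Without control replicate 1 the number was 3, beside 16.4% of all genes called higher in that fit.

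Receptors for VEGF were among the genes that fell. The list of the VEGF family and its receptors leaves out Vegfa as a member. Of its 7 tested genes, 0 rose and 3 fell in TDE-treated against CTR BMDCs, beside 7.57% and 9.34% of all genes. The number that fell was 2 with a replicate block. Without control replicate 1 it was 4, beside 18% of all genes called lower. Nrp1, a coreceptor, fell by 0.97 on the log2 scale (standard error 0.179, adjusted p = 0.00884 from edgeR), from 53.5, 58.2 and 74.1 CPM to 32.6, 29.1 and 33.2 CPM, and its adjusted p reached 0.0524 without TDE replicate 2. Flt1, the receptor VEGFR1, fell by 2.598 (standard error 0.328, adjusted p = 0.00171), CTR libraries having 35, 46 and 53 reads and TDE-treated ones 5, 9 and 7. Flt4, the receptor for VEGF-C and VEGF-D, was read 6, 30 and 29 times in CTR and 3, 6 and 2 times after TDE treatment. It fell by 2.40 (standard error 0.599, adjusted p = 0.0297), and the call held only in the 1 of 9 fits that left out control replicate 1.

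Markers of other cell types in the cultures moved with the same comparison. All 8 eosinophil markers, 5 of 6 markers of mast cells and basophils and 8 of 10 neutrophil markers fell in TDE-treated against CTR BMDCs. So did 6 of 9 tested dendritic cell markers, a number that was 8 without control replicate 1 and as low as 1 with a TDE-treated library left out. Over all genes 9.34% were called lower and 7.57% higher, or 18% and 16.4% without control replicate 1. In the other direction, 1 neutrophil marker was higher in all TDE-treated than in all CTR and NE-treated libraries. Without control replicate 1 it was called higher against both groups, and 9 neutrophil markers fell. Against NE-treated BMDCs 8 eosinophil, 6 mast cell and basophil, 6 neutrophil and 2 dendritic cell markers fell, beside 7.21% of all genes. The dendritic cell count there was 8 without control replicate 1, beside 21.5% of all genes called lower, and 0 with any TDE-treated library left out. The summed level of the eosinophil markers was 626 to 1670 CPM in CTR, 639 to 726 CPM in NE-treated and 115 to 144 CPM in TDE-treated BMDCs, and that of the neutrophil markers 7250 to 29000, 7650 to 10900 and 3250 to 3550 CPM. The dendritic cell markers summed to 4720 to 14600, 4500 to 5720 and 2530 to 2690 CPM. Control replicate 1 gave the upper end in CTR each time. The other controls had 809.5 and 625.7 CPM for eosinophil, 9599 and 7253 CPM for neutrophil and 5865 and 4722 CPM for dendritic cell markers. Itgax, which encodes CD11c, was present at 107.3 to 177.6 CPM in every library, and its TDE-treated libraries lay below all CTR and NE-treated ones. Cd209a was at or under 3 reads in all libraries and at 0 in TDE-treated BMDCs. Of 10 macrophage markers 1 rose and 2 fell, while 2 rose and 6 fell without control replicate 1, and 1 rose and 0 fell with any TDE-treated library left out. Adgre1, which encodes F4/80, was the gene that rose, by 2.56 on the log2 scale (standard error 0.304, adjusted p = 0.00130 from edgeR). Markers of fibroblasts and epithelial cells, the kinds of cell that could have made the exosomes, summed to 12.6 to 13.3 CPM in CTR, 15 to 17.4 CPM in NE-treated and 7.15 to 10.6 CPM in TDE-treated BMDCs. In such bulk samples, fewer cells of a type and less RNA per cell cannot be told apart. The part of these markers in the differences of the members was not tested.

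The genes whose log2 CPM followed a member most closely over the 9 libraries were sought among 10444 other genes with a mean of at least 5 CPM. For Hif1a they were Suco, Rab6a and Hcfc2, each with a Pearson correlation of 0.998. For Epas1 they were Trim16 (0.996), Arhgap6 (0.995) and Rab7b (0.994), and for Egln3 Nlgn2 (0.995), Pgm1 (0.994) and Smox (0.993). The TDE-treated libraries stood apart in each, so that these values mostly describe the difference between groups and, for Hif1a, the low value of control replicate 1 as well.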

How the data were processed

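The 9 RNA sequencing libraries held 3 from each treatment group. Per the paper's methods, RNA of purified BMDCs was extracted with TRIzol and sequenced on an Illumina NovaSeq instrument, the reads were aligned with TopHat2 2.1.1, and the authors tested differences with DESeq2 1.24.0. The counting program, genome build and strand setting are not given in the sources used here. The authors deposited estimated counts (expected counts) per gene without normalization, with a mean of the counts per group, which was not used, and a gene length. All sample columns could be matched to a group.

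Counts were rounded, filtered with filterByExpr and scaled by TMM factors. The 9 libraries entered 1 model in edgeR 4.0.16 (R 4.3.3), which estimated each group's mean, and groups were compared by the quasi-likelihood F test with Benjamini-Hochberg adjustment at 0.05. The standard error is the size of a log2 fold change divided by the square root of F. Code was tested on simulated data. Positions and exon overlaps came from GENCODE vM21 (GRCm38), and promoters from RefSeq (GRCm38.p6).

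The members and lists were chosen with earlier results of these data known. Named were all members, in each list up to 3 genes each with the highest and lowest log2 fold change among those called against CTR, and 3 genes most like each of Hif1a, Epas1 and Egln3; for marker lists the counts are given instead, with Adgre1, Itgax and Cd209a named after their values were seen. Where a symbol had more than 1 entry (Aldoa), the one with more reads was used. Alternatives were DESeq2 1.42.0, other normalization factors and filters, a fit to the pair of groups, a replicate block, a fold limit and each library left out.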

Additional observations from a re-analysis of the deposited data

How the results depend on the processing

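Members called in TDE-treated against CTR BMDCs numbered 8 to 10 over all alternatives, as they did against NE-treated BMDCs, and every member kept its direction in both comparisons. Genes called over the whole table moved far more. Against CTR the count of 2541 became 1152 with the 6 libraries of the pair, 1285 with a replicate block, 1583 where the log2 fold change also had to reach 1, 3731 with DESeq2, and 1103 to 5263 with each library left out. Against NE-treated BMDCs 2095 became 6072, 1175 and 1307 in the first 3 of these and 970 to 6223 with each library left out. Other HIF targets called against NE-treated BMDCs, 17 at first, numbered 26 with the 6 libraries of the pair and 15 to 26 with each library left out. Between NE-treated and CTR BMDCs DESeq2 called 3 genes, 1 of them a member, and leaving out each library gave 0 to 3 genes, 0 to 1 members and 0 to 1 other HIF targets. Vegfa reversed in that comparison without control replicate 1, with log2 fold changes from -0.29 to 0.26 as each library was left out. The causes were not tested.

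The call of Vegfa was lost against CTR in the fit to 6 libraries, and against NE-treated BMDCs with library totals or with any NE-treated or TDE-treated library left out. With a minimum of 10 counts in every library Mgarp was not tested. Library totals lowered the share of higher genes among those called against NE-treated BMDCs from 48.3% to 41.2% and moved the median of all genes between NE-treated and CTR BMDCs to 0.12 on the log2 scale. No pairing by replicate number was seen. Mean correlations of deviations were -0.00293 (TDE and CTR), -0.024 (TDE and NE) and -0.244 (NE and CTR). With 3 libraries per group, such values cannot exclude a pairing. The replicate block changed no call of a member, while Hif3a (adjusted p = 0.0654) and Flt4 (adjusted p = 0.0805) lost theirs against CTR.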
